A study of Mus musculus with 10 samples.

Results

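Glycolysis and hypoxia response genes were followed in Strap knockout (KO) and wild-type (WT) mouse cells and in WT mouse embryos. The 32 genes were taken by name from a table of 46955 rows, and all 32 were found, each in a row with a single gene name. They comprised 3 glucose and lactate transporters, 15 glycolytic enzymes and 14 other targets of the hypoxia-inducible factors (HIFs). RNA-seq abundance was given as FPKM, a number of fragments scaled to transcript length and to the size of the library, so levels of different genes can be set side by side. The 10 libraries came from KO embryonic stem cells (ESCs, 1 library), WT ESCs (1 library), KO embryoid bodies (EBs, 2 libraries), WT EBs (2 libraries), WT embryos at embryonic day 9.0 (E9.0, 2 libraries) and WT embryos at embryonic day 8.0 (E8.0, 2 libraries).

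Strap encodes a WD40-repeat protein, and its KO alleles were first made in ESCs with zinc-finger nucleases. The labels give C57BL/6 as the strain of all 10 libraries. ESCs were grown on feeder cells. EBs are aggregates that differentiate in suspension, and here they were 9 days old, after culture without LIF and then in N2B27 medium with bFGF, a regime meant to favour neuroectoderm. Each embryo library was a pool of whole embryos. No KO embryo library was analysed here, and with 2 libraries in a group the p-values measure only the spread between these cultures or pools. Stages follow the labels, although the header of each E8.0 column names a later stage. In whole cultures and whole embryos, fewer cells of a type and less RNA per cell cannot be told apart.

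Glycolysis splits glucose into pyruvate in the cytosol, and lactate dehydrogenase turns pyruvate into lactate when it is not burned in mitochondria. HIFs are dimers of an oxygen-regulated alpha subunit with ARNT. When oxygen is plentiful, prolyl hydroxylases of the EGLN family mark the alpha subunit for destruction, and when it is scarce the dimer binds short DNA elements and raises transcription of glucose transporters, nearly every glycolytic enzyme and factors for vessel growth, mitophagy and collagen maturation. ESCs and early mouse embryos are known for a high rate of glycolysis, which falls as tissues differentiate and a circulation forms.

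The DNA before the start sites of 5 of these genes is shown because they carry the contrasts described below. P4ha2 had the lowest p between KO and WT EBs, Pfkp differed most between WT EBs and embryos, Slc2a1 fell between E8.0 and E9.0, Ldha was lower in WT EBs than in embryos, and Bnip3 was the most abundant of the other HIF targets. Capitals mark the HIF core letters ACGTG or GCGTG on either strand (CACGT or CACGC when read on the opposite one). Each stretch is the part of the 250 bases before a RefSeq start (GRCm38.p6) that lies in no annotated exon, written along the gene's own strand. They lie at chr11:54100674-54100923 (plus strand) for P4ha2, chr13:6648778-6649021 (minus) for Pfkp, chr4:119108495-119108710 (plus) for Slc2a1, chr7:46845554-46845803 (plus, at the upstream start) for Ldha and chr7:138909520-138909756 (minus) for Bnip3.
P4ha2: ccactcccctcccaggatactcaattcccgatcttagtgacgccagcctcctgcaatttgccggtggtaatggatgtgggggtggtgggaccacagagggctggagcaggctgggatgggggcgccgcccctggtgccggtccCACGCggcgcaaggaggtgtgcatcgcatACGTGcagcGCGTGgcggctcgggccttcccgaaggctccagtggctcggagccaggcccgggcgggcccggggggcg
Pfkp: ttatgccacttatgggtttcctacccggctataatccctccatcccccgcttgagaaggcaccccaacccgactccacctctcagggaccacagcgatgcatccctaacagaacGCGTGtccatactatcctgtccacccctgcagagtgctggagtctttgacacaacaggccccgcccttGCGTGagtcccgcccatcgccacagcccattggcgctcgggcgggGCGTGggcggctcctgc
Slc2a1: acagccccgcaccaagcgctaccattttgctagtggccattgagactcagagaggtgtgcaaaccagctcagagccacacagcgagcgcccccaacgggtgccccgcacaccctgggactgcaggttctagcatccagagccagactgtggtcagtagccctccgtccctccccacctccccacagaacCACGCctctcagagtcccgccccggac
Ldha: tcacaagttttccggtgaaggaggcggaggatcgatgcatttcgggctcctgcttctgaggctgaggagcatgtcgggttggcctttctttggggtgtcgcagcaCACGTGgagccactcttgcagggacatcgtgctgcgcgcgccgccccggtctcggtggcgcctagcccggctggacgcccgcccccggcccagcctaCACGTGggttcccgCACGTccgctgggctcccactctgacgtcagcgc
Bnip3: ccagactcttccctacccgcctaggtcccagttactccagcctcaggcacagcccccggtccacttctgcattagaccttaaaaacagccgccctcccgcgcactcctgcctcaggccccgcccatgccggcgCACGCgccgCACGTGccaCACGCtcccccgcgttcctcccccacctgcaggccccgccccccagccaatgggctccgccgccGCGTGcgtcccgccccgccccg
The stretches of Ldha and Bnip3 held 5 core matches each, those of P4ha2 and Pfkp held 3 each, and that of Slc2a1 held 1. Their lengths differed, from 216 bases for Slc2a1 to 250 for P4ha2 and Ldha. The full window of Slc2a1 held 1 further match, an ACGTG, in the bases left out. Shares of windows given below use all 250 bases. Of a gene's windows, the one with the most matches was printed. Ldha also had a downstream window, not shown, with 1 match (GCGTG). The 50 bases after the start of the printed Ldha window were not found as an unbroken run in a transcript of the gene. Those of the downstream window were, and 37 of the 46 windows of members passed this check. Ldha and Bnip3 also held CACGTG, the E-box that other factors bind and that contains ACGTG on both strands. Each CACGTG was counted once per strand, so the places with a match were fewer than the matches. Of the 32 genes, 29 had at least 1 such window, and Slc2a3, Bnip3l and Ndrg1 had none. At least 1 core was found in 27 of these 29 genes, or in 35 of their 46 windows (76.1%), against 38.6% of the 32851 windows of all genes. ACGTG alone was in 47.8% of the members' windows and in 16.6% of all windows, and GCGTG in 23 of 46 and 28.2%. A match is a run of letters, not a measured site.

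Strap itself was at 14.5 FPKM in KO ESCs and 68.7 in WT ESCs, at 8.48 and 11.3 in KO EBs and 49.7 and 47.2 in WT EBs, and between 82.7 and 98.5 in embryos. Between 12881 and 13886 rows reached an FPKM of 1 in a library. The table holds estimates and no counts, so depth is unknown. Mitochondrial rows held 3.41% and 3.52% of FPKM in KO EBs and 5.70% and 6.62% in WT EBs. All 10 markers of pluripotent cells, Pou5f1 and Nanog among them, were at or above 1 FPKM in every ESC and EB library, with sums of 878 and 1121 FPKM in KO EBs and 316 and 702 in WT EBs. Markers of neural progenitors summed to 55.9 and 10.9 FPKM in KO EBs and to 49.8 and 18.8 in WT EBs, with 5 to 7 of 8 genes at or above 1 FPKM across the 4 EB libraries.

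Most of the 32 genes were abundant everywhere. In every library 30 of them reached 1 FPKM, the exceptions being Aldoc in the second E9.0 pool and Car9, a carbonic anhydrase of hypoxic cells, which stayed at or below 1.06 FPKM. Summed over the 32 genes, FPKM was 6486 in KO ESCs and 5056 in WT ESCs, 9490 and 11783 in KO EBs and 7453 and 8726 in WT EBs, and 7315 and 6597 at E9.0 and 9287 and 8998 at E8.0. Total FPKM also differed, from 521660 in an E8.0 pool to 735314 in a KO EB library. As a share of it the 32 genes held 1.29% and 1.76% in KO EBs and 1.13% and 1.47% in WT EBs, so the genotypes overlapped. That share was 1.11% in KO ESCs and 0.892% in WT ESCs, 1.24% and 1.13% at E9.0, and 1.78% and 1.64% at E8.0. KO EBs had the highest mean for 18 of the 32 genes, E8.0 embryos for 8, KO ESCs for 5 and WT ESCs for 1. The lowest mean was in WT ESCs for 15, at E9.0 for 13 and at E8.0 for 4.

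**Figure D1:**
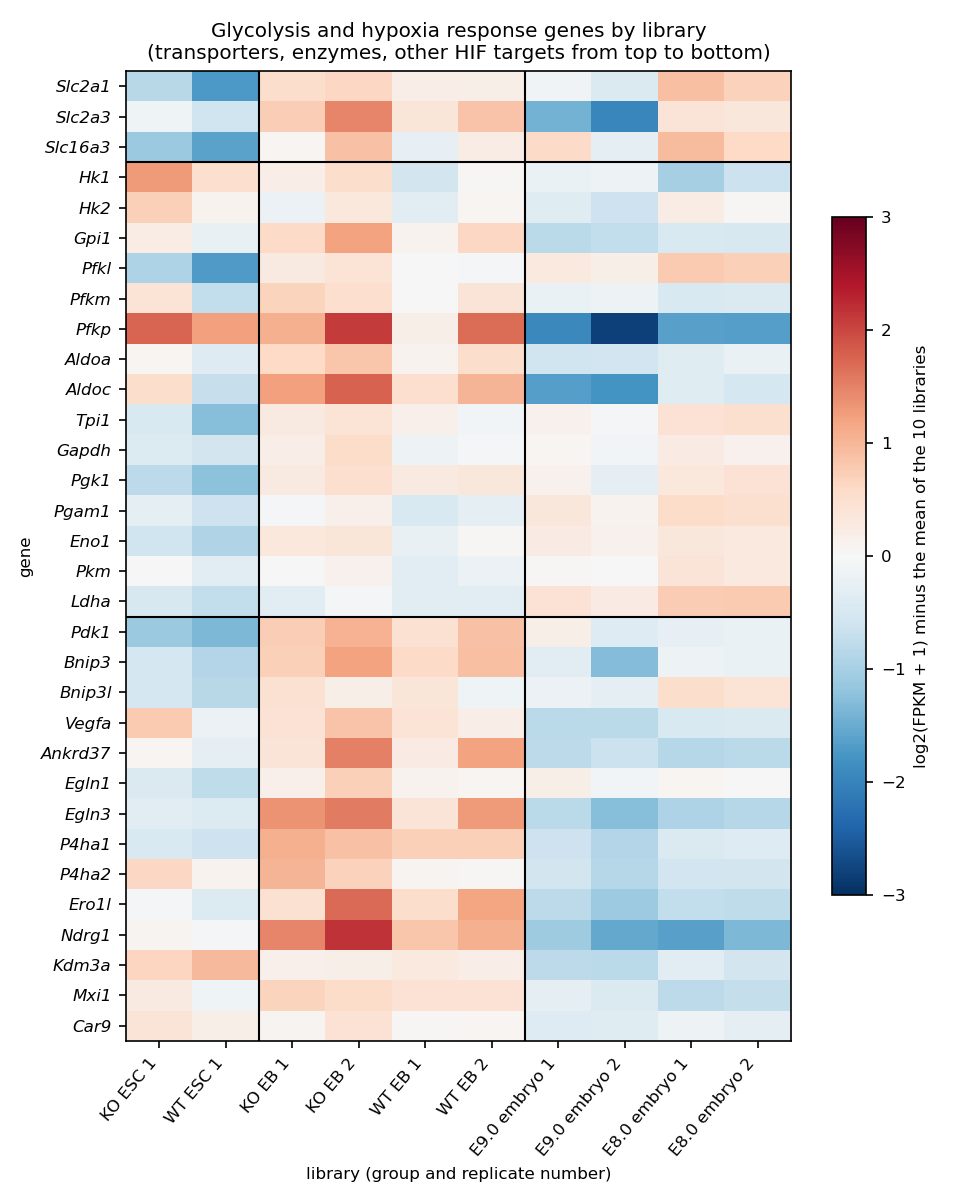
log2(FPKM + 1) of each of the 32 genes (rows, by class) in each of the 10 libraries (columns), minus that gene's mean over the libraries; red is above and blue below that mean. The KO EB columns are the reddest, with the highest mean for 18 of 32 genes, and Pfkp, Ndrg1, Egln3 and Ero1l are blue in all embryo columns.

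Glucose enters through facilitative transporters, of which Slc2a1 (GLUT1; ENSMUSG00000028645.11, chromosome 4, 119108711 to 119137983, GRCm38) serves most tissues and yolk sac. Slc2a1 had 165 FPKM in KO ESCs and 87.9 in WT ESCs, 424 and 453 in KO EBs and 336 and 331 in WT EBs, and 274 and 219 at E9.0 and 553 and 479 at E8.0. Both KO EB libraries lay above both WT EB libraries, and both E9.0 pools lay below both E8.0 pools. Its fall in E9.0 embryos was -1.07 on the log2(FPKM + 1) scale used for all changes here (SE 0.116, limma adjusted p = 0.00131). In EBs the KO minus WT difference was 0.39 (95% interval -0.24 to 1.03, limma adjusted p = 0.554).

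Slc2a3 (GLUT3; ENSMUSG00000003153.10, chromosome 6, 122727809 to 122801640), a high-affinity transporter of neurons and early embryos, had the highest mean of the transporters. It stood at 405 FPKM in KO ESCs and 295 in WT ESCs, 739 and 1227 in KO EBs and 572 and 805 in WT EBs, and 166 and 114 at E9.0 and 587 and 563 at E8.0. The EB genotypes overlapped, whereas the E9.0 pools were well under the E8.0 pools. Slc2a3 fell by 2.06 in E9.0 embryos (SE 0.182, limma adjusted p = 0.000647), and it was 1.27 higher in WT EBs than in the mean of both WT embryo stages (SE 0.315, limma adjusted p = 0.0161). The WT EB libraries lay above the E9.0 pools but overlapped the E8.0 pools. Slc16a3 (MCT4), which exports lactate, had 39.2 FPKM in KO ESCs and 27.6 in WT ESCs, 89.2 and 159.7 in KO EBs and 72.0 and 101 in WT EBs, and 129 and 69.8 at E9.0 and 166 and 129.7 at E8.0. The E9.0 pools differed by more than the stage means did, and none of the tested changes of Slc16a3 passed.

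**Figure D2:**
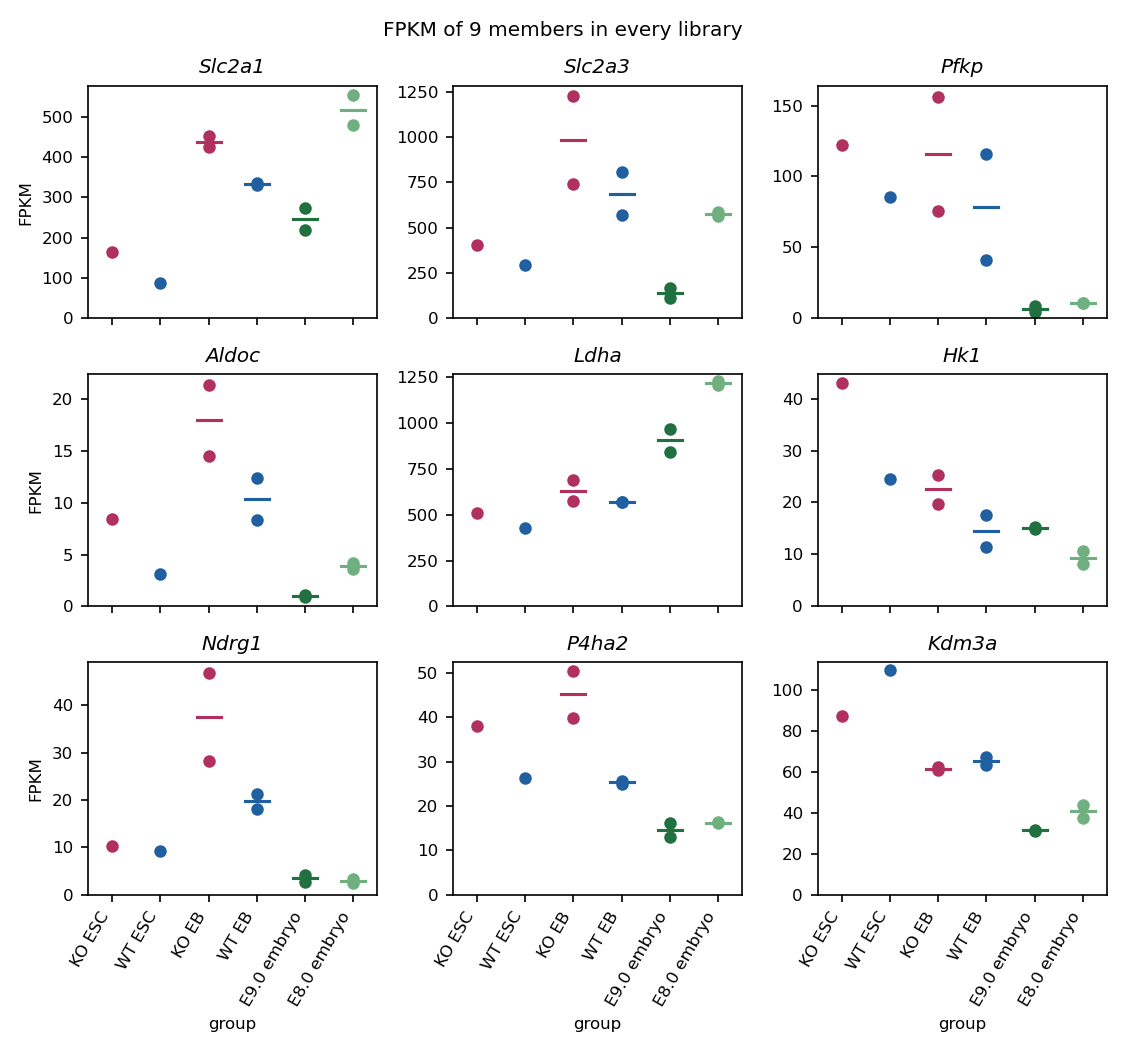
FPKM (y axes, linear and starting at 0) of 9 genes in every library, by group (x axes); each point is a library and each bar the mean of a group with 2 libraries. Slc2a1, Slc2a3 and Aldoc are lower in both E9.0 pools than in both E8.0 pools, P4ha2 and Ndrg1 are highest in KO EBs, and Ldha is highest in E8.0 embryos.

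Among the enzymes of the upper pathway, hexokinases trap glucose in the cell. Hk1 (chromosome 10, 62268855 to 62379908), the housekeeping form, had 43.0 FPKM in KO ESCs and 24.6 in WT ESCs, 19.8 and 25.4 in KO EBs and 11.4 and 17.5 in WT EBs, and 14.9 and 15.2 at E9.0 and 8.12 and 10.7 at E8.0. KO libraries were the higher ones in both materials, and the E9.0 pools lay above the E8.0 pools. It rose by 0.64 in E9.0 embryos (SE 0.136, limma adjusted p = 0.0144), opposite to Hk2, the form induced by HIF, whose change was -0.61 (SE 0.122, limma adjusted p = 0.0113).

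Phosphofructokinase commits glucose to the pathway, and its liver, muscle and platelet forms behaved differently. Pfkl had 53.7 FPKM in KO ESCs and 31.5 in WT ESCs, 126 and 139 in KO EBs and 105 and 99.8 in WT EBs, and 126 and 118 at E9.0 and 179 and 171 at E8.0. Pfkm had 27.3 FPKM in KO ESCs and 11.9 in WT ESCs, 33.1 and 29.2 in KO EBs and 20.2 and 27.0 in WT EBs, and 17.6 and 18.2 at E9.0 and 14.7 and 14.9 at E8.0. For both forms the KO and WT EB libraries did not overlap. Pfkl fell (-0.52, SE 0.062, limma adjusted p = 0.00187) and Pfkm rose (0.26, SE 0.077, limma adjusted p = 0.0456) in E9.0 embryos, and relative to the embryos WT EBs had less Pfkl (-0.51, SE 0.107, limma adjusted p = 0.00861) and more Pfkm (0.50, SE 0.133, limma adjusted p = 0.0214). The rise of Pfkm between the stages did not pass with a pseudocount of 0.1 (limma adjusted p = 0.0504), quantile normalization (0.0527) or median scaling (0.0752).

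Pfkp (ENSMUSG00000021196.14, chromosome 13, 6579768 to 6648777) had 122 FPKM in KO ESCs and 85.6 in WT ESCs, 75.3 and 156 in KO EBs and 40.7 and 116 in WT EBs, and 8.52 and 4.28 at E9.0 and 10.9 and 10.6 at E8.0. Cultured cells were far above embryos, while the 2 EB libraries of each genotype differed from each other by more than the genotypes did. WT EBs exceeded WT embryos by 2.94 (SE 0.528, limma adjusted p = 0.00490), or 7.65-fold on this scale. The KO minus WT difference in EBs was 0.65 (95% interval -1.02 to 2.32, limma adjusted p = 0.722), and without the first WT EB library it was -0.10.

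Within phosphofructokinase, Pfkp made up 60.1% of the summed FPKM in KO ESCs and 66.4% in WT ESCs, 32.1% and 48.2% in KO EBs, 24.6% and 47.8% in WT EBs, 5.59% and 3.05% at E9.0, and 5.35% and 5.38% at E8.0. Pfkl was the main form in embryos, at 82.9% and 84.0% at E9.0 and 87.5% and 87.0% at E8.0. For hexokinase, the share of Hk1 in Hk1 plus Hk2 was 28.3% and 32.6% at E9.0, against 12.4% and 17.7% at E8.0. Slc2a3 held 37.6% and 34.2% of the sum with Slc2a1 at E9.0 and 51.5% and 54.1% at E8.0, against 63.0% and 70.8% in WT EBs. These shares are descriptions, and they were not tested.

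**Figure D3:**
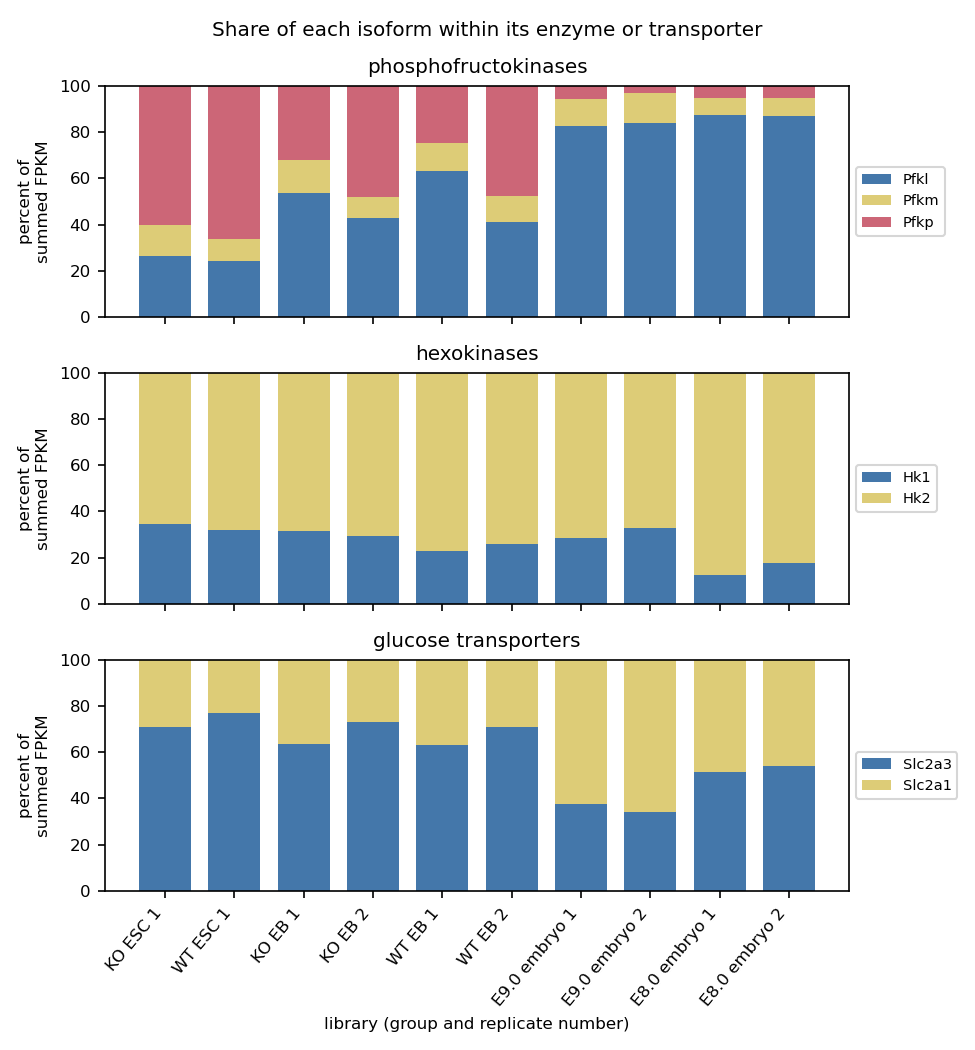
Share (percent of summed FPKM, y axes) of each isoform within the phosphofructokinases, the Hk1 and Hk2 hexokinases and the Slc2a1 and Slc2a3 transporters, by library (x axis). Pfkp takes 60.1% and 66.4% of phosphofructokinase in the ESC libraries and at most 5.59% in embryos, and Slc2a3 takes a smaller share at E9.0 than in any other library.

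Aldolase cleaves fructose bisphosphate. Aldoc (ENSMUSG00000017390.15, chromosome 11, 78322968 to 78327781), its brain form, had 8.46 FPKM in KO ESCs and 3.11 in WT ESCs, 14.5 and 21.4 in KO EBs and 8.32 and 12.4 in WT EBs, and 1.09 and 0.905 at E9.0 and 4.18 and 3.60 at E8.0. Neither the EB genotypes nor the embryo stages overlapped. Aldoc fell by 1.29 in E9.0 embryos (SE 0.128, limma adjusted p = 0.000958) and was 1.84 higher in WT EBs than in embryos (SE 0.221, limma adjusted p = 0.00120), while its KO minus WT difference in EBs was 0.74 (SE 0.299, unadjusted p = 0.041, limma adjusted p = 0.344). Aldoa, the main form, ran from 632 to 1729 FPKM over the libraries, and Aldoc never exceeded 1.22% of the pair.

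The lower pathway harvests energy and ends in lactate. Gapdh, the most abundant of the enzymes, had 1224 FPKM in KO ESCs and 1096 in WT ESCs, 1857 and 2375 in KO EBs and 1465 and 1573 in WT EBs, and 1693 and 1535 at E9.0 and 1928 and 1777 at E8.0. No tested change of Gapdh passed. Pgk1, which makes the first ATP of the pathway, had 111 FPKM in KO ESCs and 81.4 in WT ESCs, 232 and 275 in KO EBs and 233 and 245 in WT EBs, and 209.5 and 159 at E9.0 and 239 and 261 at E8.0. The EB genotypes overlapped, with a KO minus WT difference of 0.08 (95% interval -0.60 to 0.76), and Pgk1 fell by 0.45 in E9.0 embryos (SE 0.125, limma adjusted p = 0.0347).

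Pgam1, a phosphoglycerate mutase, had 76.9 FPKM in KO ESCs and 60.3 in WT ESCs, 89.5 and 104 in KO EBs and 67.6 and 75.6 in WT EBs, and 118 and 99.6 at E9.0 and 136 and 130.4 at E8.0. WT EBs lay below all embryo pools (-0.74, SE 0.150, limma adjusted p = 0.00764), and processed copies of the gene with rows of their own reached at most 4.46% of its FPKM. Ldha (ENSMUSG00000063229.15, chromosome 7, 46841475 to 46855627), the lactate dehydrogenase subunit that favours lactate formation, had 508 FPKM in KO ESCs and 429 in WT ESCs, 573 and 688 in KO EBs and 571 and 569 in WT EBs, and 967 and 845 at E9.0 and 1206 and 1228 at E8.0. Embryos held more than any cultured library. Ldha was lower in WT EBs than in embryos (-0.88, SE 0.154, limma adjusted p = 0.00449) and fell between the stages (E9.0 minus E8.0, -0.43, SE 0.090, limma adjusted p = 0.0133), and between KO and WT EBs it differed by 0.14 (95% interval -0.35 to 0.63).

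Of the other HIF targets, Bnip3, a mitophagy receptor, was the most abundant. Bnip3 had 53.7 FPKM in KO ESCs and 41.7 in WT ESCs, 128 and 179 in KO EBs and 116 and 146 in WT EBs, and 61.4 and 30.9 at E9.0 and 69.4 and 67.2 at E8.0. The second E9.0 pool lay far under the first, and no tested change of Bnip3 passed. Vegfa, the growth factor of vessels, had 79.8 FPKM in KO ESCs and 40.5 in WT ESCs, 62.6 and 84.2 in KO EBs and 61.9 and 53.2 in WT EBs, and 25.8 and 25.9 at E9.0 and 33.0 and 33.7 at E8.0. Vegfa was low in embryos and, within them, lower at E9.0 (-0.36, SE 0.075, limma adjusted p = 0.0135), and WT EBs exceeded the embryos by 0.94 (SE 0.129, limma adjusted p = 0.00190).

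Egln3, a HIF prolyl hydroxylase that HIF itself induces, had 8.48 FPKM in KO ESCs and 7.79 in WT ESCs, 28.8 and 33.8 in KO EBs and 14.5 and 27.7 in WT EBs, and 5.76 and 3.86 at E9.0 and 5.20 and 5.47 at E8.0. It was 1.81 higher in WT EBs than in embryos (SE 0.302, limma adjusted p = 0.00376). Ndrg1 (ENSMUSG00000005125.13, chromosome 15, 66929318 to 66969640), a stress-responsive gene of differentiation, had 10.3 FPKM in KO ESCs and 9.24 in WT ESCs, 28.3 and 46.8 in KO EBs and 18.1 and 21.2 in WT EBs, and 4.12 and 2.69 at E9.0 and 2.45 and 3.20 at E8.0. For both genes the KO EB libraries lay above the WT EB libraries, and embryos were low. Ndrg1 had the largest KO minus WT difference in EBs among the members, 0.86 (SE 0.420, limma adjusted p = 0.407), and was 2.34 higher in WT EBs than in embryos (SE 0.310, limma adjusted p = 0.00168).

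P4ha2 (ENSMUSG00000018906.14, chromosome 11, 54100095 to 54131665) encodes a subunit of the hydroxylase that matures collagen. It had 38.0 FPKM in KO ESCs and 26.2 in WT ESCs, 50.5 and 39.9 in KO EBs and 25.6 and 24.9 in WT EBs, and 16.2 and 12.9 at E9.0 and 16.1 and 16.3 at E8.0. The KO libraries were the higher ones in ESCs and in EBs. In EBs the difference was 0.80, or 1.75-fold (SE 0.245, 95% interval 0.23 to 1.38, unadjusted p = 0.0127), and it did not pass over all rows (limma adjusted p = 0.251). With 1 spread shared by EBs and embryos the adjusted p of P4ha2 was 0.0449, and 2.15% of all rows were then called higher in KO EBs.

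Kdm3a, a histone demethylase induced by HIF, went the other way. It had 87.0 FPKM in KO ESCs and 109 in WT ESCs, 60.7 and 62.0 in KO EBs and 67.1 and 63.3 in WT EBs, and 31.7 and 31.1 at E9.0 and 43.8 and 37.2 at E8.0. KO libraries were below WT libraries in both materials, with a difference in EBs of -0.09 (95% interval -0.52 to 0.35). Kdm3a fell by 0.35 in E9.0 embryos (SE 0.080, limma adjusted p = 0.0177). Mxi1, an antagonist of MYC, had 8.78 FPKM in KO ESCs and 6.49 in WT ESCs, 11.9 and 10.9 in KO EBs and 9.92 and 9.98 in WT EBs, and 5.68 and 5.05 at E9.0 and 3.70 and 3.95 at E8.0. It was the sole member of its class called higher in E9.0 embryos (0.40, SE 0.087, limma adjusted p = 0.0157).

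The first comparison asked what loss of Strap does to these genes in day 9 EBs. No member passed the test. Of the 31 that entered it (all but Car9, which was too low), 0 were called by limma in either direction, where 0.139% of the 15160 rows tested were. At an unadjusted p under 0.05 there were 3 members, Pfkl, Aldoc and P4ha2, all of them higher in KO EBs, and 8.07% of all rows were higher at that level. With 1 spread shared by EBs and embryos 1 member passed. As a description, 30 of 31 members had a log2 difference (KO minus WT) above 0, against 51.8% of all rows, and their median was 0.37, against 0.01 for all rows. The median was 0.48 over the transporters, 0.41 over the enzymes and 0.22 over the other HIF targets. Both KO libraries lay above both WT libraries for 19 of 31 members, against 25.8% of all rows, and Kdm3a was the single member with both below.

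The size of that median depended on the scaling and on single libraries. Quantile normalization gave a median of 0.16 with 28 members above 0, and Pgk1 (-0.12) and Ldha (-0.11) then lay below 0 beside Kdm3a. The median was 0.24 without either the second KO EB library or the first WT EB library, 0.53 without the first KO EB library and 0.51 without the second WT EB library. Markers of pluripotent cells were also higher in KO EBs, with the sums given above and all 10 genes at or above 1 FPKM. Markers of cardiac and striated muscle summed to 13.1 and 9.30 FPKM in KO EBs, with 5 and 4 of 7 genes at or above 1 FPKM, and to 214 and 81.8 in WT EBs, with 7 of 7. Fibroblast markers summed to 32.1 and 27.0 FPKM in KO EBs, with 5 and 6 of 8 genes at or above 1 FPKM, and to 243 and 59.7 in WT EBs, with 8 and 7. Markers of visceral endoderm and yolk sac summed to 190 and 291 FPKM in KO EBs and to 383 and 368 in WT EBs, with all 8 genes at or above 1 FPKM. No gene of these lists was at 0 in an EB library. Neuron markers summed to 44.3 and 54.8 FPKM in KO EBs, with 2 of 5 genes at or above 1 FPKM, and to 22.6 and 21.4 in WT EBs, with 4 and 3, and 1 of them was at 0 in the second KO EB library. Most of these sums was Stmn2, at 41.0 and 51.5 FPKM in KO EBs and 17.4 and 17.0 in WT EBs. It was also at 44.2 FPKM in KO ESCs and 61.3 in WT ESCs. Dcx went the other way, at 0.386 and 0.0103 FPKM in KO EBs and 1.98 and 0.674 in WT EBs. Endothelial markers summed to 27.3 and 23.5 FPKM in KO EBs and to 39.2 and 37.1 in WT EBs, and those of trophoblast and decidua to 3.17 and 3.30 in KO EBs and to 8.81 and 12.4 in WT EBs. Of the 8 trophoblast and decidua genes, 2 and 1 were at or above 1 FPKM in KO EBs and 2 and 2 in WT EBs. At 0 were 5 and 5 of them in KO EBs and 4 and 5 in WT EBs. Each of these sums separated the genotypes without overlap, as did the share of mitochondrial rows, and the part of any of them in the differences of the members was not tested.

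**Figure D4:**
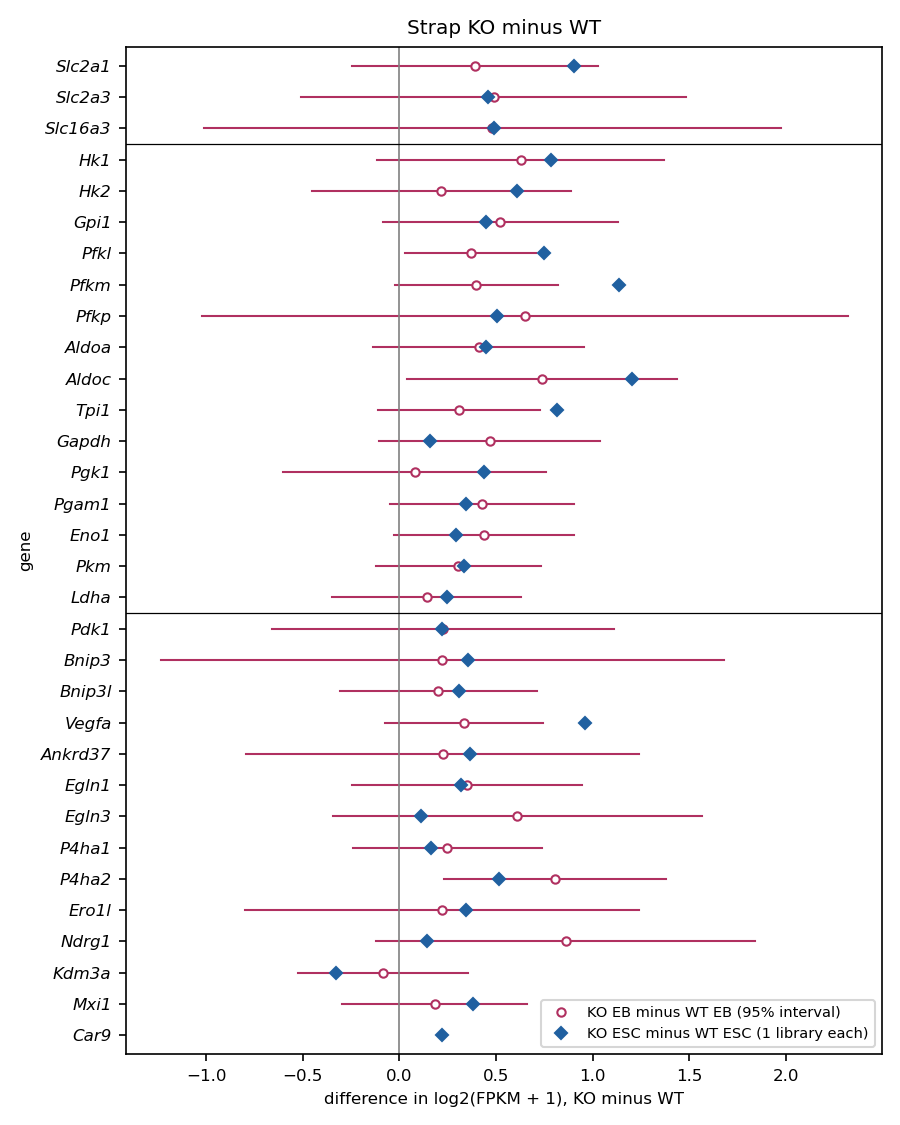
Difference in log2(FPKM + 1) between KO and WT (x axis) for each gene (y axis, by class); circles are EBs with their 95% interval from limma (31 genes, all open because the adjusted p is 0.05 or more, and none for Car9, which was not tested) and diamonds the single pair of ESC libraries (32 genes). Except for Kdm3a, the 31 circles and the 32 diamonds lie right of 0, and the intervals of Pfkl, Aldoc and P4ha2 alone exclude 0.

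Genes around the pathway were read in the same EB fit, and none of them passed there. At an unadjusted limma p under 0.05, 8.07% of all rows were higher in KO EBs, and 871 of the 15160 rows were lower. Of 12 HIF subunits and regulators, 7 were higher in KO EBs with a median of 0.02, and 1 had an unadjusted p under 0.05, Hif3a (-0.64, unadjusted p = 0.0344). Of 30 HIF targets outside the 32 genes, 16 were higher, with a median of 0.06 beside the 0.01 of all rows, and 2 were higher at an unadjusted p under 0.05. The median was 0.08 over 19 other isoforms of the enzymes and transporters and 0.18 over 3 genes of gluconeogenesis, with 1 higher at an unadjusted p under 0.05 in each. It was 0.33 over 8 genes of the pentose phosphate pathway (2 higher at that level), 0.01 over 23 genes of pyruvate oxidation and the citric acid cycle (1 lower) and 0.18 over 27 nuclear-encoded genes of the respiratory chain (4 higher). All 17 genes of the integrated stress response that were tested had a difference above 0, with a median of 0.68 and 10 of them under an unadjusted p of 0.05, and none passed after adjustment. Atf4, its central transcription factor, averaged 125 FPKM in KO EBs and 77.9 in WT EBs (0.68, SE 0.127, limma adjusted p = 0.146).

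In ESCs the same question rests on 1 library a genotype, so no test was possible. FPKM was higher in KO than in WT ESCs for 31 of 32 members, where 48.2% of the 14627 rows compared were higher, and the median log2 ratio was 0.37 against -0.02 for all rows. At least 1.5-fold higher in KO ESCs were 8 members, against 8.66% of all rows, and no member was 1.5-fold lower. These were 1 transporter, 6 enzymes and 1 other HIF target. The highest ratios on the log2 scale were 1.20 for Aldoc, 1.14 for Pfkm, 0.96 for Vegfa and 0.90 for Slc2a1, and the lowest were -0.33 for Kdm3a and 0.11 for Egln3. Marker sums for pluripotent cells (1898 FPKM in KO ESCs and 1943 in WT ESCs) and for fibroblasts such as feeder cells (317 and 320) were close in the pair. Of the 31 members with a value in both materials, 30 were higher in KO ESCs and in KO EBs by their means. The share of all rows that were higher in both was not counted, so this count has no background beside it. The ESC and EB libraries are separate, but how many lines of each genotype they came from is not given in the sources used here.

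EBs were set against the ESCs of their own genotype as a description. Both EB libraries exceeded the ESC library for 26 of 32 members in KO cells, with a median ratio of 1.79, and for 26 of 32 in WT cells, with a median ratio of 1.91. All 3 transporters were higher in EBs of both genotypes, with median ratios of 2.65 in KO and 3.13 in WT. Both EB libraries were below the ESC library for 3 members in KO cells and for 5 in WT cells. Hk1 and Kdm3a, given above, were among them in both genotypes. Total FPKM was higher in EBs as well, at 735314 and 671343 in KO EBs against 583856 in KO ESCs. In WT cells it was 657171 and 594339 in EBs against 566770 in ESCs. The same counts and ratios were not taken over all rows, so whether the members stand apart from other genes here was not tested.

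Between the embryo stages more members were called lower than higher at E9.0. In E9.0 embryos 14 members fell and 3 rose among the 31 tested, where 12.0% of all rows fell and 13.7% rose (limma, adjusted p under 0.05). The median change of the members was -0.32, against 0.00 for all rows, and 24 of 31 were below 0. Of the 3 transporters, 2 fell (Slc2a1 and Slc2a3). Of the 15 enzymes, 8 fell and 2 rose, the rises being Hk1 and Pfkm, and 5 were not called (Gapdh, Eno1, Aldoa, Gpi1 and Pfkp). Of the 13 other HIF targets tested, 4 fell and Mxi1 rose. The falls of the enzymes were modest apart from Aldoc, and besides those given they comprised Tpi1 (-0.41, SE 0.077), Pkm (-0.32, SE 0.078) and Pgam1 (-0.30, SE 0.087). Bnip3l (-0.70, SE 0.094) and P4ha1 (-0.36, SE 0.089) also fell. Ndrg1 and Pfkp were among the 4 highest and 4 lowest changes and did not pass, at 0.19 (SE 0.180) and -0.73 (SE 0.306).

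The falls of Slc2a1 and Slc2a3 passed in all 14 alternative fits, and the rest depended on the fit. With 1 spread shared by EBs and embryos 3 members fell and 0 rose, where 1.12% of all rows fell and 1.20% rose. In a fit of the 4 embryo libraries 9 members fell and 0 rose, against 8.51% and 10.4% of all rows. Without the first E9.0 pool 14 members fell and 0 rose, against 7.60% and 7.95% of all rows, and without the second 7 fell and 2 rose, against 7.53% and 8.92%. Without the first E8.0 pool 5 members fell and 0 rose, against 4.62% and 4.87% of all rows, and without the second 7 fell and 1 rose, against 6.15% and 6.81%. The share of all rows called was thus smaller in each of these fits as well. Marker sums of other tissues also differed between the same pools. Erythroid markers summed to 11583 and 7599 FPKM at E9.0 and to 916 and 2133 at E8.0, with all 8 genes at or above 1 FPKM in each pool. Markers of visceral endoderm and yolk sac summed to 45.9 and 20.6 FPKM at E9.0 and to 573 and 927 at E8.0, with 7 and 3 of 8 genes at or above 1 FPKM at E9.0 and 8 of 8 at E8.0. Fibroblast and mesenchyme markers summed to 626 and 666 FPKM at E9.0 and to 95.04 and 135 at E8.0, and neural progenitor markers to 173 and 179 at E9.0 and to 79.3 and 80.8 at E8.0. No gene of these 4 lists was at 0 in an embryo pool. Neuron markers summed to 17.3 and 18.5 FPKM at E9.0 and to 12.4 and 10.8 at E8.0, and markers of trophoblast and decidua to 17.3 and 12.9 at E9.0 and to 25.3 and 27.9 at E8.0. Of the 8 trophoblast and decidua genes, 2 were at or above 1 FPKM in each E9.0 pool and 3 in each E8.0 pool. At 0 were 5 of them in each E9.0 pool and 2 in each E8.0 pool. Rows of ribosomal RNA type held 1.96% and 1.21% of FPKM at E9.0 and 0.0016% and 0.0133% at E8.0. Mitochondrial rows held 2.38% and 0.262% at E9.0 and 0.598% and 0.472% at E8.0. The ribosomal shares did not overlap between the stages, so stage and this library difference cannot be told apart here. The part of any of these sums and shares in the changes of the members was not tested.

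Among the surrounding lists in embryos, the lowest p value belonged to another isoform, Slc2a2 (GLUT2, of liver, pancreatic islets and gut), at a mean of 0.372 FPKM at E9.0 and 18.8 at E8.0 (-3.87, SE 0.226, limma adjusted p = 0.000138). Of 19 such isoforms tested, 4 fell and 4 rose, where 12.0% of all rows fell and 13.7% rose. The same shares of all rows stand beside each count of calls that follows. Of 23 genes of pyruvate oxidation and the citric acid cycle, 5 rose and 1 fell, led by both subunits of the mitochondrial pyruvate carrier, Mpc1 (1.05, SE 0.108, limma adjusted p = 0.00104) and Mpc2 (0.80, SE 0.129, limma adjusted p = 0.00516). Of 27 respiratory chain genes 8 rose and 4 fell. Of 30 HIF targets outside the members 3 rose and 4 fell, and of 12 HIF subunits and regulators 4 rose and 2 fell. The rises included Cited4 (1.40, SE 0.249, limma adjusted p = 0.0075) and Hif1an (0.36, SE 0.064, limma adjusted p = 0.00751). The falls included Cited2 (-0.68, SE 0.124, limma adjusted p = 0.00824). The integrated stress response had 7 rises and 0 falls among 17 genes (10 and 1 at an unadjusted p under 0.05), with a median of 0.32, and Atf4 was among the rises (0.43, SE 0.054, limma adjusted p = 0.00214). Of 8 genes of the pentose phosphate pathway 2 rose and 0 fell (3 and 0 at an unadjusted p under 0.05), with a median of -0.06, and of 3 genes of gluconeogenesis none was called (1 higher at that level).

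**Figure D5:**
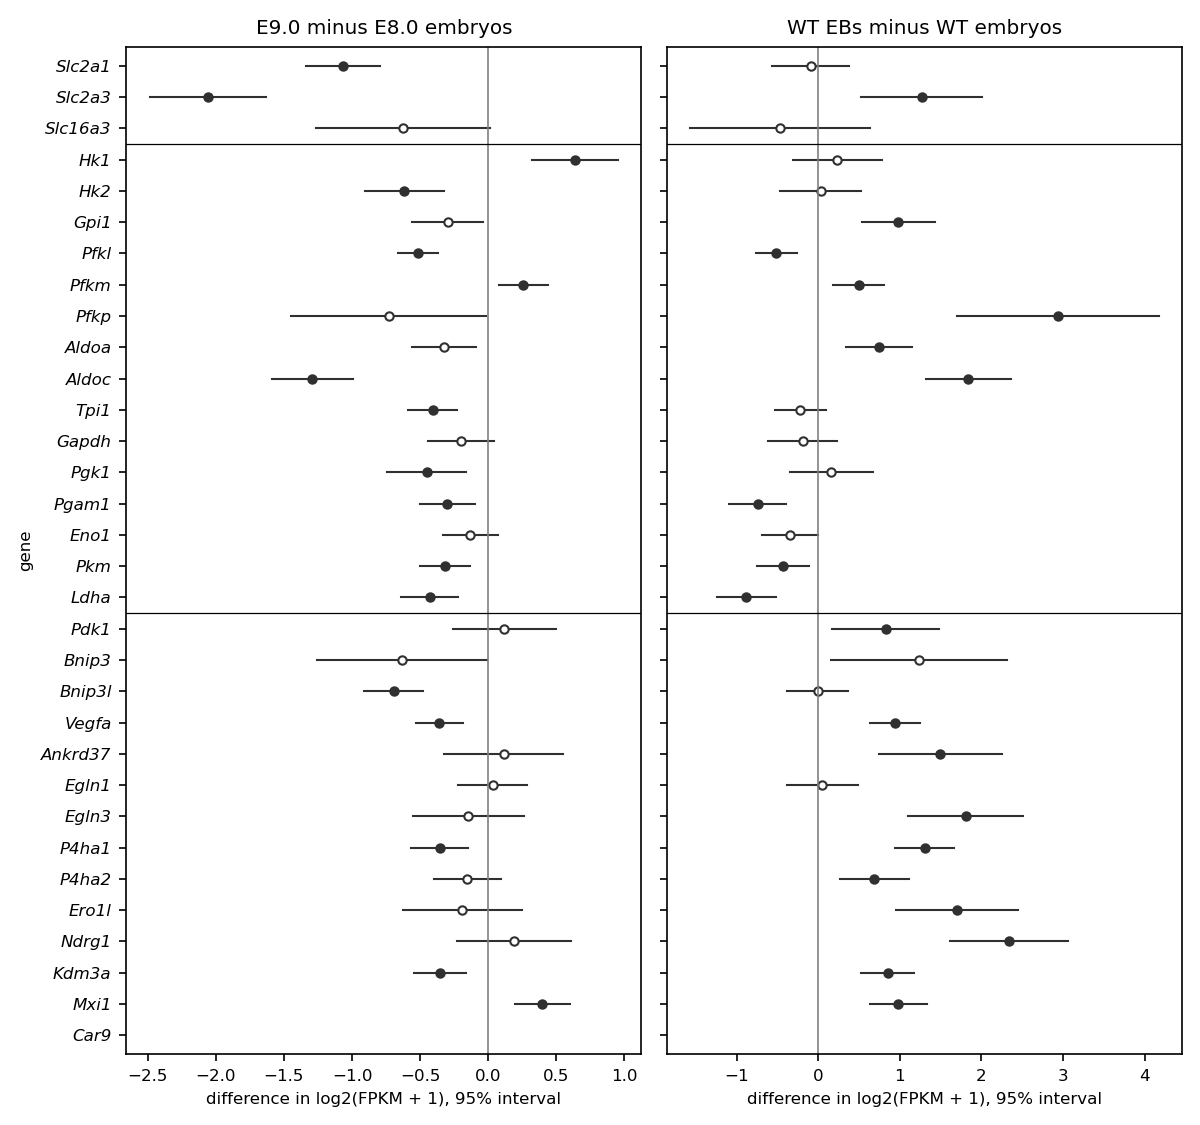
Difference in log2(FPKM + 1) (x axes) for each gene (y axis, by class), E9.0 minus E8.0 embryos on the left and WT EBs minus WT embryos on the right; lines are 95% intervals from limma and filled circles have an adjusted p under 0.05. On the left 14 genes are called lower and 3 higher, and on the right 16 higher and 4 lower, with no other HIF target called lower there.

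WT EBs were compared with the mean of both WT embryo stages to place the cultures against tissue. Of the other HIF targets 10 of 13 tested were called higher in WT EBs, and enzymes were called in both directions. Of the 31 members 16 were called higher and 4 lower, where 23.9% of all rows were called higher and 20.3% lower (limma, adjusted p under 0.05), and the median was 0.69 against 0.05 for all rows. The median of the other HIF targets was 0.98, with 11 higher and 0 lower at an unadjusted p under 0.05, and those not called were Bnip3 (1.23, limma adjusted p = 0.0632), Bnip3l (-0.01, limma adjusted p = 0.974) and Egln1 (0.05, limma adjusted p = 0.838). Among the 15 enzymes, 5 were higher (Pfkp, Aldoc, Gpi1, Aldoa and Pfkm) and 4 lower (Ldha, Pgam1, Pfkl and Pkm). Of the transporters, Slc2a3 alone was called higher, and its WT EB libraries overlapped the E8.0 pools. This comparison shares its WT EB libraries with the genotype comparison and its embryo libraries with the stage comparison.

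Besides those described, Ero1l (1.70, SE 0.322), which forms disulfide bonds in the endoplasmic reticulum, P4ha1 (1.30, SE 0.154) and Gpi1 (0.98, SE 0.192) were higher in WT EBs. Slc16a3 had one of the 4 lowest values, -0.47 (SE 0.471), and did not pass. The calls for Aldoc, Vegfa, P4ha1 and Ndrg1 held in all 16 alternative fits. Leaving out the first WT EB library left 12 members higher and 0 lower, where 12.0% of all rows were higher and 9.14% lower. Leaving out the second left 4 members higher and 0 lower, where 5.27% of all rows were higher and 3.89% lower. The counts of the other lists are from the fit of all 8 libraries, where 23.9% of all rows were higher and 20.3% lower. Of 30 HIF targets outside the members, 10 were higher and 2 lower. Among the higher were Bhlhe40 (a mean of 26.8 FPKM in WT EBs and 1.32 in embryos, 3.60, SE 0.355, limma adjusted p = 0.000637) and Kdm4c (28.7 and 5.81 FPKM, 2.13, SE 0.160, limma adjusted p = 0.000295). Of 27 respiratory chain genes 1 was higher and 6 lower, of 23 of pyruvate oxidation and the citric acid cycle 1 was higher and 4 lower, and of 8 of the pentose phosphate pathway 1 was higher and 2 lower. Of 12 HIF subunits and regulators 2 were higher and 4 lower, of 19 other isoforms 8 and 5, of 3 genes of gluconeogenesis 1 and 1, and of 17 genes of the integrated stress response 8 and 3. Pluripotency markers, at 316 and 702 FPKM in WT EBs, were at 29.3 to 40.1 FPKM in the embryo pools, and erythroid markers, at 4.24 and 0.556 FPKM in WT EBs, reached 11583 in a pool. Their part in these differences was not tested.

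Replicates of 1 group also differed in these genes, mostly in 1 direction. The second KO EB library was above the first for 26 of 31 members, with a median difference of 0.26, and the second WT EB library for 22 of 31, with a median of 0.22, while the medians over all rows were -0.01 and 0.00. The largest such gaps were 1.24 for Ero1l in KO EBs and 1.49 for Pfkp in WT EBs. The second E9.0 pool was below the first for 25 of 31 members, with a median of -0.19, and for Bnip3 by 0.97. The E8.0 pools were close, with a median difference of -0.02. These differences between libraries of the same label stand beside a KO minus WT median of 0.37.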

How the data were processed

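RNA was extracted with Trizol and depleted of ribosomal RNA (the labels and the methods name different kits), and sequenced in read pairs. The authors trimmed adapters with Cutadapt. Per the labels, STAR 2.5.2b was the aligner, GRCm38 the genome and Cufflinks 2.2.1 the source of the deposited FPKM, for which the methods state that strand was used. The table held 10 libraries and no columns of other samples. Any rescaling between libraries is not given in the sources used here. Cufflinks estimates are not whole reads, so read numbers were not recovered.

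Rows were matched by gene name. Coordinates came from GENCODE M21 on GRCm38 for 31 of 32 members, and start-site windows from RefSeq. A row was tested if 2 or more of the 8 libraries from EBs and embryos reached 1 FPKM, which gave 15160 rows, 794 of them with merged names. The test was that of limma 3.58.1 (R 4.3.3), two-sided, on log2(FPKM + 1), where the pseudocount of 1 understates the change of low genes. The 4 groups of EBs and embryos shared a model with a variance trend and weights by material, since EB replicates spread more than embryo pools (weights 0.428 for EBs and 2.34 for embryos, 4 residual and 3.36 prior degrees of freedom). Benjamini-Hochberg adjustment ran over all rows, with a threshold of 0.05. ESCs had 1 library a genotype, so rows at or above 1 FPKM in either were compared by ratio. The pipeline was tested on simulated data.

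Members and lists were chosen with earlier results of these data known. Named were the 4 highest and 4 lowest changes of each tested comparison, the 4 highest and 2 lowest ESC ratios, the most abundant member of each class, and at most 3 genes of lowest p from each other list. Other members (Hk2, Tpi1, Pkm, Gpi1, Aldoa, Bnip3l, P4ha1, Ero1l) were picked with their values in view. Settings varied in turn were the pseudocount (0.1), the filter (none, or 5 FPKM), the scaling (quantile or median), the spread (shared by EBs and embryos, or robustly moderated), a replicate block, the libraries in the fit (only those compared) and the removal of each library. Fits of only the libraries compared with a replicate block, or with weights by material, were chosen after seeing the data.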

Additional observations from a re-analysis of the deposited data

How the results depend on the processing

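Depth is unknown and groups hold 2 libraries, so small differences could not be resolved. The labels do not say that a replicate number marks a shared day or culture. The replicate differences of KO and WT EBs correlated at 0.415 and those of E9.0 and E8.0 embryos at -0.03. With the replicate block 613 rows passed between KO and WT EBs, against 21, and 0 members in both, and the median of WT EBs against embryos was 0.51, against 0.69; Slc16a3 then passed there, at -1.10. The block changed no other count by over 1.5 times.

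Between KO and WT EBs the rows called were 36 with a pseudocount of 0.1, 8 with no filter, 581 with 1 shared spread (1 member, P4ha2), 2 in a fit of the 4 EB libraries and 4 in that fit with the replicate block. Quantile normalization gave a member median of 0.16 and turned Pgk1 (-0.12) and Ldha (-0.11). Of 31 members 23 kept their direction in every alternative. Between E9.0 and E8.0 embryos the members called were 3 with 1 shared spread (352 rows), 9 in a fit of the 4 embryo libraries (2866 rows), and 5 in that fit with the replicate block (444 rows), against 17 (3910 rows), and 27 of 31 kept their direction in every alternative.

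Without 1 library at a time, the KO and WT EB comparison had a member median from 0.24 to 0.53, 0 members called and 8 to 18 rows called, with Pgk1 from -0.041 to 0.198 and Pfkp from -0.096 to 1.39. For E9.0 against E8.0 embryos these were a median from -0.368 to -0.225, 5 to 14 members and 1438 to 2493 rows, with Ndrg1 from -0.045 to 0.426. For WT EBs against embryos they were a median from 0.527 to 0.739, 4 to 21 members and 1388 to 6389 rows.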
